A study of Homo sapiens with 24 samples.

Results

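The genes described here are 45 genes of G2 and mitosis, given as a list and found by symbol in both deposited tables of the study. They are 45 of 63241 genes in the table of untreated cells and of 36741 genes in the table of cells given MPP+. The study sequenced polyadenylated RNA of SH-SY5Y, a human neuroblastoma line used as a model of dopaminergic neurons, in 24 libraries. In one pair of populations a hairpin targeted MCART1 (shMCART1) or was scrambled (shScramble), and in the other a construct overexpressed MCART1 (oeMCART1) or served as its control (oeNC). MCART1 is an older name of SLC25A51, the carrier that brings NAD+ into mitochondria. Each of these 4 cell populations was sampled untreated and after 0.5 mM MPP+, an inhibitor of respiratory complex I, for 24 h, which makes 8 groups of 3 libraries. The labels do not say how the constructs were delivered, which promoter drove them, whether a population was 1 clone, or whether the replicates came from separate cultures. P-values therefore reflect only the spread among these samples, which may be technical. Values are TPM, in which reads are scaled by transcript length and to the same total in each library. Such values keep no depth, so sequencing depth is unknown.

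The targeted gene followed its labels. SLC25A51 stood at 7.28 ± 2.02 TPM in shMCART1 and 11.0 ± 0.382 TPM in shScramble (SD, n = 3 each), and at 683 ± 12.3 TPM in oeMCART1 and 31.6 ± 3.48 TPM in oeNC. With MPP+ it stood at 5.33 ± 0.423 TPM in shMCART1 and 7.91 ± 0.899 TPM in shScramble, and at 936 ± 69.0 TPM in oeMCART1 and 8.49 ± 0.837 TPM in oeNC. The ratio of means of shMCART1 over shScramble was 0.665 untreated and 0.675 with MPP+. Untreated shMCART1 replicate 2 measured 9.45 TPM, near the lowest untreated shScramble library at 10.52 TPM. Untreated oeNC stood above untreated shScramble, while these 2 controls lay close together with MPP+. An exact permutation test of TPM gave p = 0.1 in each comparison, the smallest it can give with 3 against 3 libraries. The marker genes went in part against the label of the cells: of 12 genes of the neuroblastoma lineage 5 or 6 averaged at least 1 TPM in each group. TH, the rate-limiting enzyme of catecholamine synthesis, reached at most 0.04 TPM, PHOX2A at most 0.09 TPM and DBH at most 0.07 TPM. Other genes of that lineage were present, with GATA2 at 15.2 to 39.1 TPM, GATA3 at 3.85 to 7.24 TPM, HAND2 at 1.39 to 4.44 TPM and ISL1 at 1.68 to 4.80 TPM. The tissue label reads bone marrow, the site from which the line was derived, and 10 of 12 blood and marrow markers stayed under 1 TPM in every library that listed them while HBA1 reached 41.7 TPM. The growth protocol names HEK293T cells beside SH-SY5Y, and of the kidney markers SIX2 lay at 18.0 to 40.4 TPM, while CDH16 was at 0 and PAX8 at most at 0.05 TPM; 2 to 4 of 8 kidney markers averaged at least 1 TPM in each group. The results below are therefore those of the libraries as labelled.

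Mitosis genes are switched on together late in the cell cycle. Cyclin B bound to the kinase CDK1 starts mitosis, kinetochores attach chromosomes to spindle microtubules, the spindle checkpoint holds the cell until every chromosome is attached, and the anaphase-promoting complex (APC/C) then marks cyclins and securin for destruction so that the chromosomes part and the cell divides. Many of these genes carry a cell cycle homology region (CHR), bound by the DREAM complex in resting cells, where it represses them, and by MYBL2 and FOXM1 complexes in cycling cells, where they activate them. CCAAT boxes, bound by the factor NF-Y, often lie upstream of a CHR. In a bulk sample, fewer dividing cells and less of a message per dividing cell cannot be told apart.

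The promoters of 4 members are shown because these members had the smallest adjusted p in the comparison with the most members called as deposited, oeMCART1 over oeNC with MPP+, and because members that moved together can share such elements. Each is the 300 bases from 250 before to 50 after the RefSeq start of the gene (GRCh38.p14), 5′ to 3′ on the gene's strand. CCNB2 lies at chr15:59104896-59105195 on the plus strand, KIF4A at chrX:70289854-70290153 on the plus strand, DLGAP5 at chr14:55191536-55191835 on the minus strand, and NDC80 at chr18:2571307-2571606 on the plus strand. Capitals mark matches, on either strand, to the CHR letters TTTGAA or TTTAAA and to CCAAT; on the opposite strand TTTGAA reads TTCAAA. There CCAAT reads ATTGG.
CCNB2: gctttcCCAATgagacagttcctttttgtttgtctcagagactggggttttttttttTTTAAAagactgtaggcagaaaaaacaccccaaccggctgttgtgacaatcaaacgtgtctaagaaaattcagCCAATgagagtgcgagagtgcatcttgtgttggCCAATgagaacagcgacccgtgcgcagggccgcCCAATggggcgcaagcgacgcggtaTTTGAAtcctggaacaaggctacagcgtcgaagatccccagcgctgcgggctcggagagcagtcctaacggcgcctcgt
KIF4A: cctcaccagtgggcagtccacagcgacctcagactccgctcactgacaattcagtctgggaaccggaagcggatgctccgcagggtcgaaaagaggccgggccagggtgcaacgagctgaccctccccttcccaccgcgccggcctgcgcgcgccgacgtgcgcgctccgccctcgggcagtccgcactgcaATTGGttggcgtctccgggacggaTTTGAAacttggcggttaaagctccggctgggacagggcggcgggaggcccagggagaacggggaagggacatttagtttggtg
DLGAP5: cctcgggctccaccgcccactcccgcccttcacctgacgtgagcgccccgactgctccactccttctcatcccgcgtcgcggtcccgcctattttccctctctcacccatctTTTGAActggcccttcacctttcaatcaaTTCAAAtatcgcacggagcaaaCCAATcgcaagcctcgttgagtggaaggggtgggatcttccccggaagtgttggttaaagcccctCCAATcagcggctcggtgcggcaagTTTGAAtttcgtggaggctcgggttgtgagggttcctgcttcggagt
NDC80: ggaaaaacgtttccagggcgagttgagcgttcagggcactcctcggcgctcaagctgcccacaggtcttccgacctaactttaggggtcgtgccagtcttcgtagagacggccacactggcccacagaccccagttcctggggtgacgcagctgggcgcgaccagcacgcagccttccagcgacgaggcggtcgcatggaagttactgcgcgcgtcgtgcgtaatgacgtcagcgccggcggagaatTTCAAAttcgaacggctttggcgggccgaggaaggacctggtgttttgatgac
Positions are those of a match's first base relative to the start, negative upstream. CCNB2 held 4 CCAAT matches, at -244, -120, -87 and -54, TTTGAA at -29 and TTTAAA at -193. KIF4A held TTTGAA at -34 with a CCAAT match upstream of it, at -58, and DLGAP5 held 3 TTTGAA matches and 2 CCAAT matches. NDC80 held a CHR match at -3 on the opposite strand and no CCAAT in this window. A window was given for 37 of the 45 members. Of these 37, 32 (86.5%) held TTTGAA or TTTAAA, against 24.3% of all 27305 promoter windows, and 30 (81.1%) held CCAAT, against 35.7% of all windows. Both elements stood in 26 of the 37 (70.3%), against 9.49% of all windows. The matches describe letters, not bound sites, and the list was made of genes known to act together in the cell cycle. Members that did not follow the others below held the same letters, among them CDC20, with TTTGAA at -65, and PLK1, with TTTGAA at -29.

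The members spanned a wide range of levels. In untreated shScramble cells the most abundant were CKS2, a small subunit of cyclin-dependent kinases, at 515 ± 36.3 TPM, UBE2C, the APC/C's ubiquitin-conjugating enzyme, at 363 ± 26.7 TPM, and PTTG1, the securin that guards cohesin, at 333 ± 14.3 TPM. At the low end stood ASPM, a spindle pole protein, at 2.42 ± 0.675 TPM and CENPE, the kinetochore motor of chromosome alignment, at 0.453 ± 0.196 TPM. CENPE did not pass the filter of 1 TPM in at least 3 libraries of a table, so 44 of the 45 members were tested within each table. It passed in the fit over all 24 libraries, where its highest value, 3.32 TPM, stood in a single library, oeNC with MPP+ replicate 1, against 0.34 and 0.20 TPM in the other 2 libraries of that group. Summed over the list, the members made up 3356 ± 204 TPM in shMCART1 and 3775 ± 79.2 TPM in shScramble, and 3696 ± 30.4 TPM in oeMCART1 and 3315 ± 172 TPM in oeNC. With MPP+ the sums were 2982 ± 38.7 TPM in shMCART1 and 3035 ± 71.7 TPM in shScramble, and 3043 ± 86.4 TPM in oeMCART1 and 2642 ± 123 TPM in oeNC.

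The first comparison asked what lower MCART1 does to these genes in untreated cells. Of the 44 tested members 25 fell and 2 rose in shMCART1 relative to shScramble, at an adjusted p under 0.05 from limma on log2(TPM + 1). Over all 14703 genes tested, 25.6% fell and 8.64% rose. The median log2 change of the members was -0.48, and that of all genes was -0.15. After median-of-ratios scaling, which centres the typical gene, 23 members fell and 5 rose, beside 2999 of the 14703 genes lower and 2903 higher. Of the 25 falls 22 lay in the entry, checkpoint, kinetochore, spindle and cytokinesis genes, and the other 3 were MKI67, TOP2A and the kinase NEK2; the chromosomal passenger complex and the APC/C group held none.

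Among the genes of mitotic entry, 5 of 6 fell. CCNA2, cyclin A2 (ENSG00000145386, chromosome 4, 121816444 to 121823933, minus strand, GENCODE 29 on GRCh38), measured 22.9, 29.4 and 14.6 TPM in the shMCART1 libraries, against 45.6, 56.3 and 47.1 TPM in the shScramble libraries. The groups did not overlap, and the log2 change was -1.17 ± 0.23 (± SE, as for all log2 changes below; adjusted p = 0.0139). CDK1, the kinase that cyclins A and B activate, measured 22.7, 24.8 and 13.5 TPM, against 41.8, 50.5 and 38.8 TPM in shScramble (-1.10 ± 0.20, adjusted p = 0.0139). The B cyclins fell less, CCNB1 by 0.38 and CCNB2 by 0.48 on the log2 scale, and CKS2 by 0.38; with the trend on GC content described below removed, CCNB1 and CKS2 stood above 0, at 0.06 and 0.14. CDC25C, the phosphatase that switches CDK1 on, was not called (log2 change -0.16). TOP2A, the topoisomerase that disentangles sister chromatids, fell to 38.5 ± 6.66 TPM in shMCART1, against 64.2 ± 7.32 TPM in shScramble. MKI67, the Ki-67 proliferation marker that coats mitotic chromosomes, fell to 16.3 ± 3.57 TPM, against 24.5 ± 1.7 TPM. FOXM1, a transcription factor that drives many genes of the list, lay at 82.3 ± 3.96 TPM in shMCART1 and 82.9 ± 9.09 TPM in shScramble, and was not called.

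All 5 spindle checkpoint genes fell, although BUB3 stood at 0.07 with the GC trend removed. TTK, the kinase that starts checkpoint signalling at unattached kinetochores, measured 2.57, 2.53 and 2.05 TPM in shMCART1, against 4.21, 7.64 and 4.83 TPM in shScramble (-0.92 ± 0.17, adjusted p = 0.0139). MAD2L1, which sequesters CDC20 until attachment is complete, fell by 0.82, the kinase BUB1 by 0.70, its relative BUB1B by 0.73 and their partner BUB3 by 0.45 on the log2 scale. At the kinetochore, CENPF, NDC80 and NUF2 fell: NDC80 and NUF2 form the microtubule-binding pair of the NDC80 complex, and NDC80 measured 4.64, 5.45 and 3.74 TPM in shMCART1, against 9.04, 11.4 and 6.93 TPM in shScramble. SPC25 of the same complex (log2 change -0.47, adjusted p = 0.0548) and CENPA, the centromeric histone (-0.18), were not called.

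Of the spindle motors and microtubule proteins 5 of 8 fell, and of the cytokinesis genes 4 of 6. KIF11, the motor that pushes spindle poles apart, measured 4.93, 6.51 and 3.45 TPM in shMCART1, against 9.47, 13.2 and 9.71 TPM in shScramble (-1.00 ± 0.19, adjusted p = 0.0139). HMMR, a spindle assembly protein, fell to 1.96 ± 0.415 TPM, against 5.02 ± 1.71 TPM, and DLGAP5 and NUSAP1, which bundle spindle microtubules, fell by 0.85 and 0.71 on the log2 scale. ECT2, the exchange factor that activates RhoA at the cleavage furrow, showed the largest log2 change among the tested members, -1.23 ± 0.24, with 7.19, 8.31 and 3.61 TPM in shMCART1 and 14.7, 17.4 and 14.7 TPM in shScramble. ANLN, the anillin scaffold of the contractile ring, and KIF23, a subunit of centralspindlin, fell by 0.93 and 0.81, and PRC1, which crosslinks the central spindle, by 0.44. The fifth spindle gene called was ASPM, which fell by 0.57 on the log2 scale as deposited and stood at 0.05 with the GC trend removed; its call was also lost after quantile normalization (-0.38, adjusted p = 0.0579), with no filter (0.0684) and without shMCART1 replicate 1 or 3 or shScramble replicate 1 or 2 (0.0507 to 0.104). NEK2, a centrosome kinase, fell to 10.2 ± 3.09 TPM, against 19.1 ± 1.75 TPM.

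PLK1 and AURKB went the other way. PLK1, a kinase of centrosome maturation and cytokinesis, measured 268, 253 and 266 TPM in shMCART1, against 217, 186 and 220.3 TPM in shScramble, groups that did not overlap (0.34 ± 0.07, adjusted p = 0.0144). AURKB, the kinase of the chromosomal passenger complex, measured 240.4, 214 and 243 TPM, against 199, 179.5 and 213 TPM (0.24 ± 0.08, adjusted p = 0.0415). The other subunits of that complex, INCENP (-0.16), BIRC5, also called survivin (0.08), and CDCA8, also called borealin (0.06), were not called. Nor were CDC20, the APC/C's mitotic activator (0.14), UBE2C (0.12), PTTG1 (0.07) and CDCA3, a trigger of mitotic entry (0.09). AURKB was not called without shMCART1 replicate 1 (0.21) or 3 (0.21) or without shScramble replicate 1 (0.25) or 2 (0.17). Without shScramble replicate 2 limma called no member and 2 genes in all, with 5108 genes at an unadjusted p under 0.05. Without shMCART1 replicate 3 it called 15 members lower, beside 825 of all genes. A fit of only these 2 groups called no member and no gene at an adjusted p under 0.05, with 5799 genes at an unadjusted p under 0.05.

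**Figure D1:**
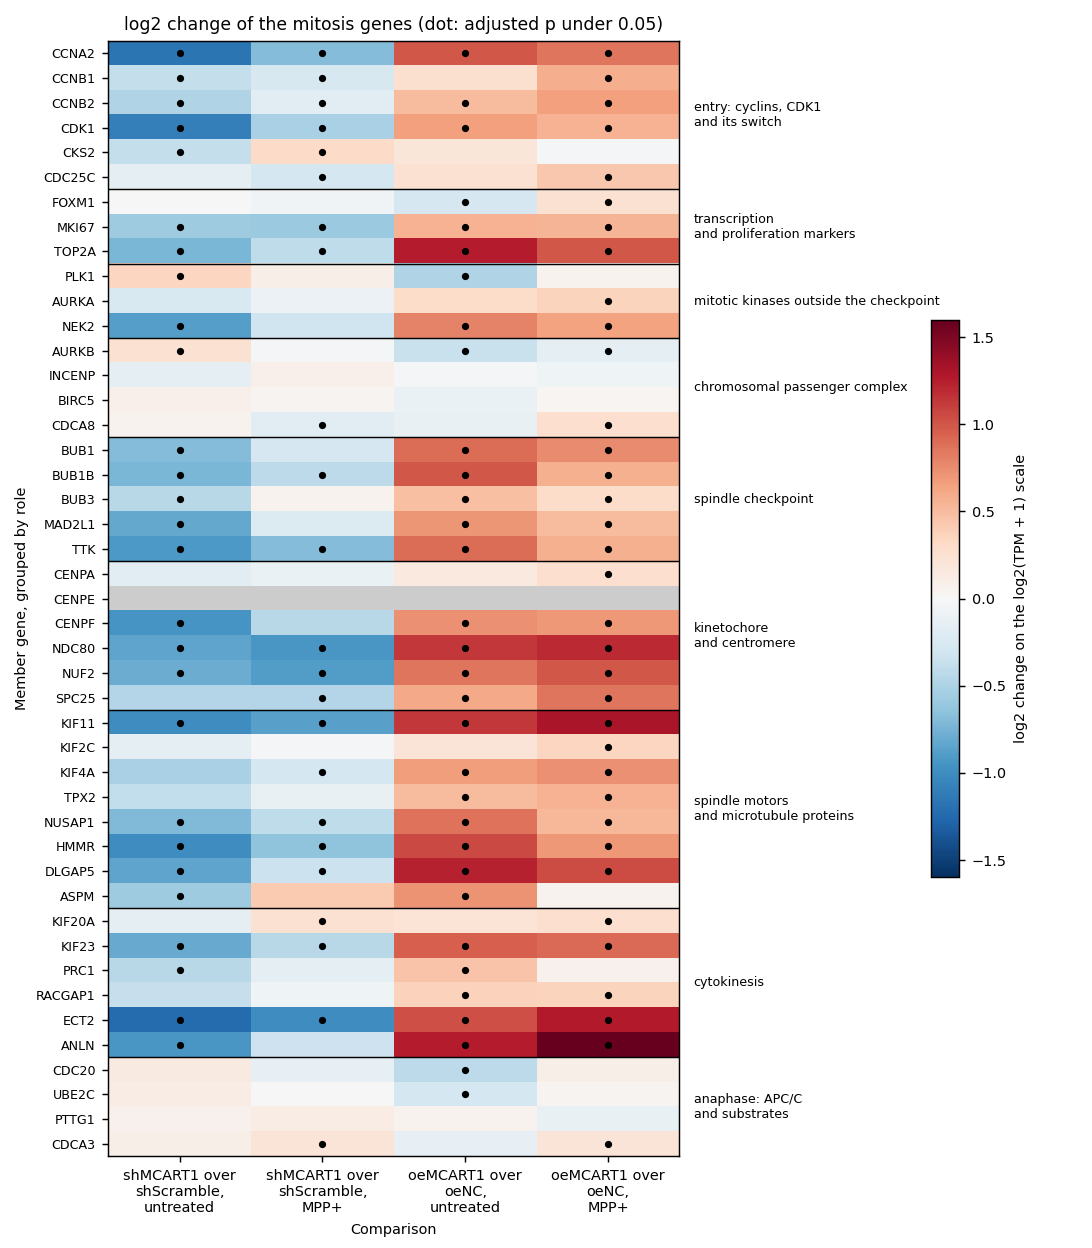
Colour gives the log2 change on the log2(TPM + 1) scale of each member (rows, grouped by role) in 4 comparisons (columns), a dot marks an adjusted p under 0.05, and grey marks CENPE, which was not tested within a table. In untreated cells 25 members were lower in shMCART1 and 27 were higher in oeMCART1, while PLK1 and AURKB stood out with the opposite colours.

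The matching question for overexpression was answered against oeNC. In untreated oeMCART1 cells 27 of the 44 members rose and 5 fell, beside 33.5% of all genes higher and 14.7% lower. The members' median log2 change was 0.53, and that of all genes 0.16. After median-of-ratios scaling 26 members rose and 9 fell, beside 3952 of all 14703 genes higher and 3687 lower. All 5 checkpoint genes, 4 of 5 tested kinetochore genes, 7 of 8 spindle genes and 5 of 6 cytokinesis genes rose, of which BUB3 (-0.16), SPC25 (-0.08) and RACGAP1 (-0.12), a centralspindlin subunit, stood below 0 with the GC trend removed.

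ANLN measured 22.3, 23.0 and 23.6 TPM in oeMCART1, against 6.76, 11.0 and 9.69 TPM in oeNC, without overlap (1.26 ± 0.21, adjusted p = 0.0041). TOP2A measured 80.0, 80.4 and 85.3 TPM, against 27.8, 35.0 and 39.9 TPM (1.25 ± 0.15, adjusted p = 0.00396), and DLGAP5 25.8, 28.2 and 26.8 TPM, against 9.07, 12.9 and 11.1 TPM (1.23 ± 0.19). In each of these 3 genes every oeMCART1 library lay above every oeNC library. KIF11 rose by 1.13 on the log2 scale, NDC80 by 1.13, HMMR by 1.06, ECT2 by 1.03, CCNA2 by 0.99, BUB1B by 0.99 and KIF23 by 0.96. CDK1 measured 63.9 ± 7.27 TPM in oeMCART1 and 40.6 ± 7.92 TPM in oeNC, a rise of 0.65 on the log2 scale (-0.06 with the GC trend removed), whereas CCNB1 (0.26) and CKS2 (0.19) were not called. Of the oeNC libraries replicate 2 lay nearest to oeMCART1 in many of these genes: CCNA2 measured 62.8, 70.0 and 66.1 TPM in oeMCART1, against 24.7, 42.2 and 33.8 TPM in oeNC. Leaving out 1 library at a time gave 20 to 30 members higher, beside 2933 to 5427 of all genes.

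The 5 members that fell were PLK1, CDC20, AURKB, UBE2C and FOXM1. PLK1 measured 167, 162 and 169 TPM in oeMCART1, against 230.3, 223 and 242 TPM in oeNC (-0.48 ± 0.07, adjusted p = 0.0041), and CDC20 measured 157, 149 and 160.3 TPM, against 214, 198 and 216 TPM (-0.42 ± 0.08, adjusted p = 0.00484). The groups did not overlap in either gene. AURKB fell by 0.36, UBE2C by 0.28 and FOXM1 by 0.27 on the log2 scale. The call of FOXM1 was lost with the GC trend removed (-0.15, adjusted p = 0.111). It was also lost without oeMCART1 replicate 1 or 2 or oeNC replicate 2 or 3 (adjusted p of 0.0642 to 0.0837). PLK1 and AURKB, the 2 members that rose in untreated shMCART1, were thus among those that fell in untreated oeMCART1.

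**Figure D2:**
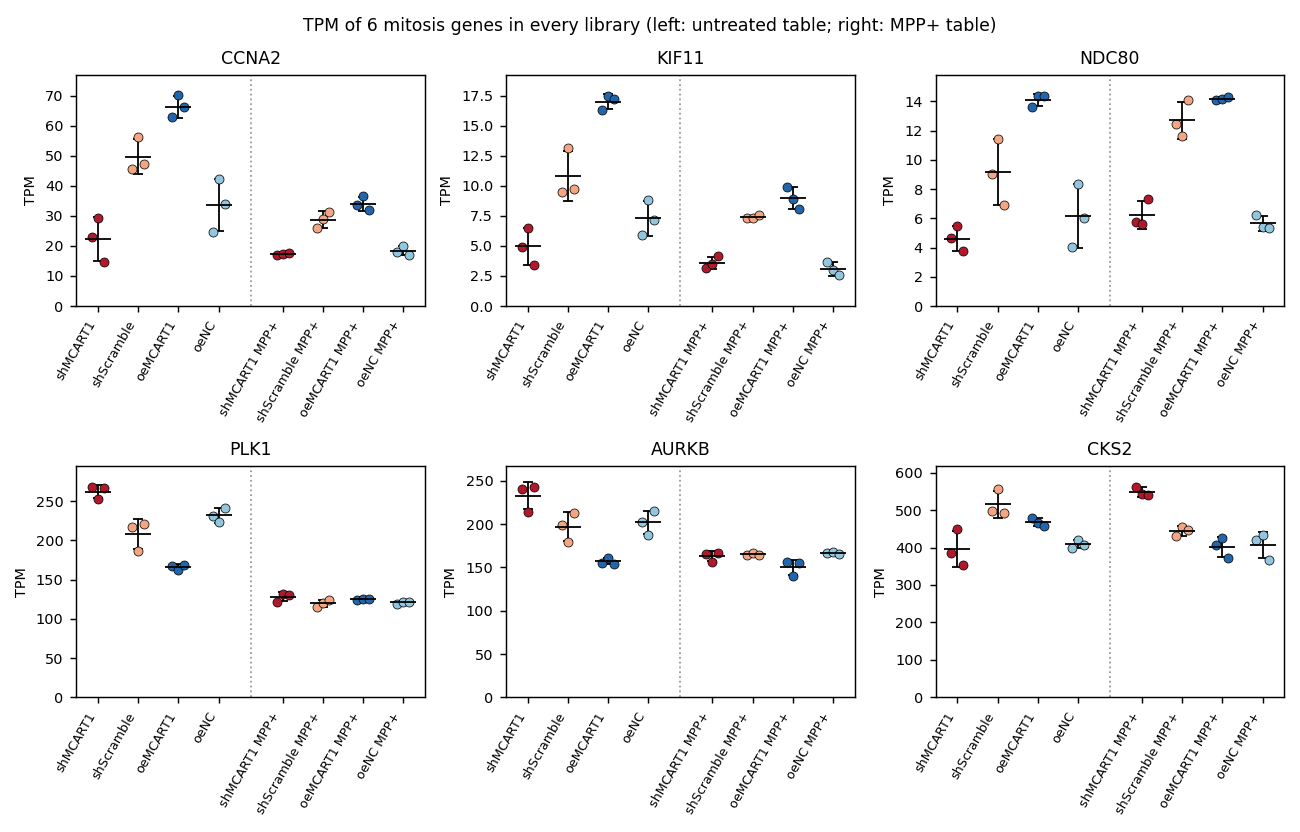
Points are TPM in single libraries of 6 members, with the mean and SD of each group as a dash and bars; the 4 untreated groups stand left of the dotted line and the 4 MPP+ groups right of it. CCNA2, KIF11 and NDC80 were lower in shMCART1 than in shScramble and higher in oeMCART1 than in oeNC in both tables, whereas PLK1 and AURKB were higher in untreated shMCART1 and CKS2 was higher in shMCART1 only with MPP+.

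With MPP+, 20 of the 44 members fell and 3 rose in shMCART1 relative to shScramble, beside 22.2% of all genes lower and 10.8% higher. The members' median log2 change was -0.24, and that of all genes -0.08. After median-of-ratios scaling 13 fell and 6 rose, beside 2281 of all 14895 genes lower and 2554 higher. After quantile normalization 16 fell and 5 rose, beside 2479 and 2373. Without shScramble replicate 3 of the MPP+ table limma called 11 members lower, beside 2175 of all genes. Without shMCART1 replicate 2 of that table it called 13 lower, beside 2425 of all genes. Of the NDC80 complex, NDC80 measured 5.78, 5.61 and 7.31 TPM in shMCART1, against 12.4, 11.7 and 14.1 TPM in shScramble (-0.93 ± 0.10, adjusted p = 0.000144), and NUF2 measured 6.31, 4.80 and 6.29 TPM, against 10.6, 11.7 and 12.7 TPM (-0.90 ± 0.13, adjusted p = 0.000649). SPC25 fell by 0.47 on the log2 scale, a call lost in 4 of 6 fits without 1 library of the comparison (log2 changes of -0.48 to -0.38 there). In all 3 the groups did not overlap. CCNA2 was tightly grouped at 16.9, 17.2 and 17.6 TPM in shMCART1, against 25.8, 29.0 and 31.4 TPM in shScramble (-0.70 ± 0.08, adjusted p = 0.000191). KIF11 measured 3.15, 3.50 and 4.16 TPM, against 7.33, 7.33 and 7.53 TPM (-0.87 ± 0.12), and ECT2 3.23, 4.62 and 4.88 TPM, against 8.71, 9.62 and 9.88 TPM (-1.00 ± 0.18). TTK fell by 0.69, HMMR by 0.64, MKI67 by 0.59 and CDK1 by 0.52 on the log2 scale. The other entry genes CDC25C, CCNB1 and CCNB2 fell by 0.28, 0.26 and 0.17, with CCNB2 at 0.01 when the GC trend was removed. Of the checkpoint genes only TTK and BUB1B were called, with BUB1 at an adjusted p of 0.055, MAD2L1 at 0.213 and BUB3 at 0.599.

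The 3 members that rose in shMCART1 under MPP+ were CKS2, KIF20A and CDCA3. CKS2 measured 562, 542 and 539 TPM in shMCART1, against 430.3, 456 and 448 TPM in shScramble (0.30 ± 0.06, adjusted p = 0.00364). KIF20A, a kinesin of the central spindle, measured 25.3, 23.2 and 23.9 TPM, against 19.7, 20.6 and 20.4 TPM (0.24 ± 0.06, adjusted p = 0.00966). CDCA3 measured 58.5, 57.7 and 58.4 TPM, against 47.5, 49.5 and 54.3 TPM (0.21 ± 0.06, adjusted p = 0.0258). In each of the 3 the shMCART1 libraries all lay above the shScramble libraries, but the call of CDCA3 was lost in 5 of 6 fits without 1 library of the comparison (log2 changes of 0.16 to 0.21 there). ASPM also lay higher in all shMCART1 libraries, at 2.31, 2.41 and 2.35 TPM, against 1.49, 1.59 and 1.45 TPM in shScramble, but was not called (0.42 ± 0.17, adjusted p = 0.0787).

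In cells given MPP+, 34 of 44 members rose and 1 fell in oeMCART1 relative to oeNC. Across all 14895 genes tested, 46.7% rose and 14.2% fell. The median log2 change was 0.53 over the members and 0.26 over all genes. After median-of-ratios scaling 19 members rose and 9 fell, beside 4066 of all genes higher and 4237 lower. After quantile normalization 19 rose and 5 fell, beside 4147 and 3930 of all genes. ANLN measured 16.8, 14.4 and 11.5 TPM in oeMCART1, against 4.91, 3.86 and 3.29 TPM in oeNC (1.60 ± 0.15, adjusted p = 6.09e-06). KIF11 measured 9.94, 8.92 and 8.10 TPM, against 3.66, 3.03 and 2.55 TPM (1.30 ± 0.12, adjusted p = 4.09e-06), and ECT2 14.6, 11.4 and 11.5 TPM, against 5.84, 5.05 and 3.21 TPM (1.27 ± 0.18). The libraries of the 2 groups did not overlap in these 3 genes. NDC80 measured 14.1, 14.2 and 14.3 TPM in oeMCART1, against 6.26, 5.39 and 5.36 TPM in oeNC (1.19 ± 0.10).

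The 4 members whose promoters are shown above were chosen on this comparison, so their values in it are given as a description only. CCNB2, a B cyclin, measured 63.9, 65.1 and 62.0 TPM in oeMCART1, against 40.8, 40.1 and 39.0 TPM in oeNC (0.66 ± 0.05). KIF4A, a chromosome-bound kinesin, measured 23.1, 23.4 and 22.3 TPM, against 13.0, 14.4 and 13.0 TPM (0.73 ± 0.06), and DLGAP5 14.1, 13.5 and 11.4 TPM, against 6.32, 6.01 and 5.08 TPM (1.04 ± 0.09). All 5 checkpoint genes and all 5 tested kinetochore genes rose, of which TTK (-0.05), MAD2L1 (-0.15), BUB3 (-0.31) and CENPA (-0.01) stood below 0 with the GC trend removed. CENPA, BUB3, KIF20A, CDCA3, CDCA8 and FOXM1 rose by 0.20 to 0.29 on the log2 scale, beside the 0.26 of all genes, and stood at -0.11 to -0.02 after median-of-ratios scaling. AURKB was the member that fell, with 156, 141 and 155 TPM in oeMCART1 and 166, 168 and 166 TPM in oeNC (-0.15 ± 0.04, adjusted p = 0.0113; -0.10 and 0.0537 without oeMCART1 replicate 2). PLK1 (0.05), CDC20 (0.09), UBE2C (0.04), BIRC5 (0.03), INCENP (-0.07), PTTG1 (-0.12), PRC1 (0.07), CKS2 (-0.02) and ASPM (0.06) were not called.

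Markers of mesenchymal and Schwann-like cells moved in the same comparisons. Of 12 listed, 7 were tested with MPP+, and in oeMCART1 relative to oeNC 3 fell and none rose (5 and none with the GC trend removed). Of all genes 14.2% fell and 46.7% rose there (21.9% and 26.2% with the trend removed). Of the neuroblastoma list 6 were tested with MPP+, with 2 higher and 1 lower in oeMCART1 and 1 higher and 2 lower in shMCART1. COL1A1, a collagen, fell to 2.47 ± 0.617 TPM in oeMCART1, against 10.4 ± 1.07 TPM in oeNC (-1.73, adjusted p = 1.97e-06; -1.61 with the GC trend removed). The collagen COL3A1 fell to 0.29 TPM, against 1.45 TPM, and the filament protein VIM to 412 TPM, against 484 TPM. In shMCART1 relative to shScramble with MPP+ COL3A1 (0.80), TWIST1 (0.41) and VIM (0.23) rose and none fell, beside 10.8% of all genes higher and 22.2% lower. The list summed to 433 to 478 TPM in oeMCART1 and 469 to 573 TPM in oeNC with MPP+, and to 639 to 687 TPM in shMCART1 and 553 to 583 TPM in shScramble with MPP+. In untreated cells, where 8 of the 12 were tested, the sums were 355 to 421 TPM in shMCART1 and 435 to 460 TPM in shScramble, with 2 higher and 2 lower, and 416 to 441 TPM in oeMCART1 and 347 to 426 TPM in oeNC, with 1 higher and none lower. Of all genes 8.64% were higher and 25.6% lower in untreated shMCART1, and 33.5% higher and 14.7% lower in untreated oeMCART1. SOX10 was at 0 in shMCART1, shScramble and oeNC with MPP+, S100B in oeMCART1 and oeNC with MPP+ and in untreated oeMCART1, and COL1A2 in untreated shScramble, oeMCART1 and oeNC. The part of these markers in the members' changes was not tested.

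The 2 control constructs were also set against each other, since they share a table. In untreated cells oeNC and shScramble differed at 2 members, TOP2A (-0.90 ± 0.15, adjusted p = 0.0203) and PRC1 (-0.54 ± 0.09, adjusted p = 0.0243), both lower in oeNC, beside 1.09% of all genes lower and 0.197% higher. Neither was called without oeNC replicate 1 or any 1 of the shScramble libraries. Without oeNC replicate 2, 17 members were lower, beside 2108 of all 14703 genes, and without oeNC replicate 3, 1 was, beside 21 of all genes. No member was called higher. At an unadjusted p under 0.05, 1 was higher and 22 were lower, beside 4511 of all 14703 genes in either direction. With MPP+ 32 of the 44 members were lower in oeNC than in shScramble and none was higher. Of all genes 42.8% were lower and 5.13% higher. At an unadjusted p under 0.05, 33 members were lower and none higher, beside 8110 of all 14895 genes in either direction. After median-of-ratios scaling 18 were lower and 9 higher, beside 2653 of all 14895 genes lower and 3125 higher. NDC80 stood at 5.67 ± 0.511 TPM in oeNC and 12.7 ± 1.25 TPM in shScramble (-1.04 ± 0.10), KIF11 at 3.08 ± 0.557 TPM in oeNC and 7.4 ± 0.115 TPM in shScramble (-1.05 ± 0.12), and TOP2A at 25.5 ± 5.57 TPM in oeNC and 53.2 ± 6.25 TPM in shScramble (-1.05 ± 0.14). Under MPP+ TOP2A stood at 51 ± 6.52 TPM in oeMCART1, NDC80 at 14.2 ± 0.127 TPM and KIF11 at 8.99 ± 0.922 TPM, nearer to shScramble than oeNC was. The comparisons of oeMCART1 and of shScramble with oeNC share the oeNC libraries.

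The group means of the knockdown and overexpression comparisons of a table share no library. The spread of each gene was estimated from all 12 libraries of the table in both, so their calls are not independent. In untreated cells 23 members were lower in shMCART1 and higher in oeMCART1, which is 92% of the 25 that fell and 85.2% of the 27 that rose. Over all genes tested 3295 did so, which is 87.5% of the 3764 that fell and 66.9% of the 4927 that rose. With MPP+ there were 20, which is 100% of those that fell in shMCART1 and 58.8% of those that rose in oeMCART1, beside 89.1% and 42.4% over all genes. The members called lower in shMCART1 in both tables numbered 16, 25 were called higher in oeMCART1 in both, and 15 were in both sets; over all genes tested in both tables these sets held 1881, 3962 and 1701 of 13571 genes (12.5% for the last). These 15 were the entry genes CCNA2, CCNB2 and CDK1, the proliferation markers MKI67 and TOP2A, the checkpoint kinases BUB1B and TTK, the kinetochore genes NDC80 and NUF2, the spindle genes KIF11, NUSAP1, HMMR and DLGAP5, and the cytokinesis genes KIF23 and ECT2. In shMCART1 with MPP+ the calls of TOP2A and NUSAP1 were lost in most fits without 1 library (adjusted p up to 0.163 and 0.109). After median-of-ratios scaling TOP2A (0.0895), NUSAP1 (0.0753) and CCNB2 (0.279) were not called there. In oeMCART1 with MPP+ that scaling lost the calls of MKI67 (0.101), CDK1 (0.12) and NUSAP1 (0.136). Quantile normalization lost these and TTK (0.0905) there. In untreated oeMCART1 the calls of CCNB2 and CDK1 were lost in several fits without 1 library (adjusted p up to 0.0857 and 0.09). With the GC trend removed 2 of the 15 stayed in the set. All genes were not counted in that setting, so whether the members differ from other genes there is unknown. CHR letters stood in 13 of the 14 promoter windows given for these 15 members and in 19 of the 23 given for the other 30.

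The size of a member's change followed the base composition of its transcript. The median GC content of the members' longest transcripts was 43.2%, against 48.8% over the genes tested. Across the 44 members the Spearman correlation of GC content with the log2 change was 0.871 for shMCART1 over shScramble and -0.838 for oeMCART1 over oeNC in untreated cells, and 0.614 and -0.712 in the same order with MPP+. Across all genes the values were 0.767, -0.795, 0.464 and -0.591, so the members lay on a trend that the whole table showed. The 2 control constructs differed along it too. For oeNC over shScramble the values over all genes were 0.53 untreated and 0.597 with MPP+, and over the members 0.518 and 0.68. These are descriptions over genes of the same libraries. In untreated shMCART1 the 22 members of lower GC content had a median log2 change of -0.83 and the 22 of higher GC content -0.16, and in untreated oeMCART1 the medians were 0.88 and 0.18. ECT2, at 38.0% GC, and KIF11, at 38.3%, were among the members that changed most, and PLK1, at 57.1%, AURKB, at 55.6%, and CDC20, at 57.9%, were among those that did not follow the rest. Libraries of one group differed along the same trend: the Spearman correlation over genes of a library's deviation from the table mean with GC content was -0.635 in shScramble replicate 2, against -0.0817 and -0.0155 in replicates 1 and 3, and -0.169 in oeNC replicate 2, against 0.608 and 0.543 in replicates 1 and 3. Where the trend arose was not tested.

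**Figure D3:**
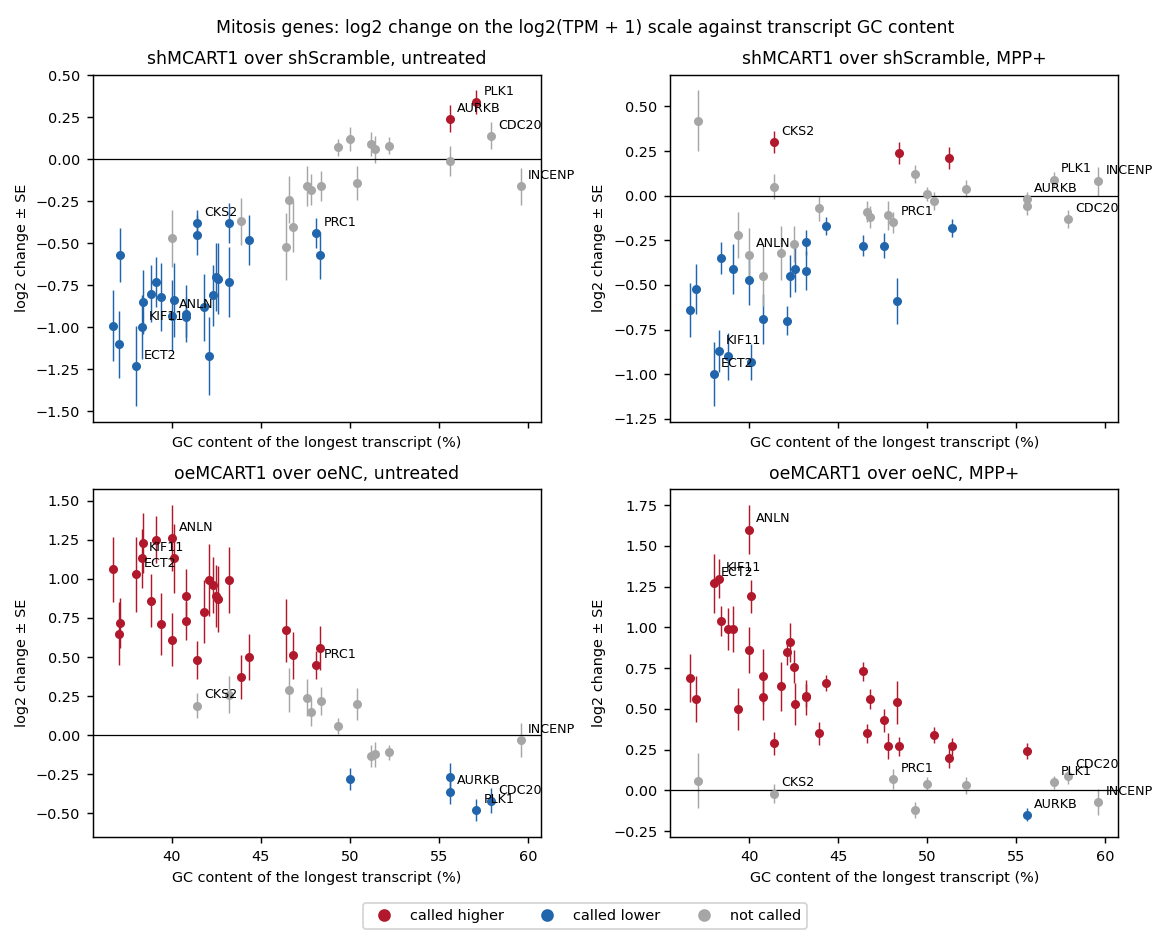
Each point is a member, with the GC content of its longest GENCODE 29 transcript in percent on the x axis and the log2 change ± SE on the y axis, in 4 comparisons; colours mark members called higher, lower or not called. Members of low GC content lie lowest in the knockdown panels and highest in the overexpression panels, with Spearman correlations of 0.871 and -0.838 in untreated cells.

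After each library's trend on GC content was removed, fewer members were called in each of 5 comparisons. The members' changes still had Spearman correlations with GC content of 0.485 for shMCART1 and -0.511 for oeMCART1 in untreated cells. With MPP+ the correlations were 0.362 and -0.228 in the same order. The trend was fitted over all genes, and whether these remainders among the members are leftover trend was not tested. In untreated shMCART1 10 members were lower and 1 higher (all genes 6.23% and 4.37%), with a members' median of -0.14. In untreated oeMCART1 11 were higher and 9 lower (all genes 9.27% and 8.95%), with a median of 0.05. With MPP+ 11 members were lower and 6 higher in shMCART1 (all genes 14.9% and 13.8%), 15 higher and 7 lower in oeMCART1 relative to oeNC (26.2% and 21.9%), and 6 higher and 11 lower in oeNC relative to shScramble (13.1% and 10.9%). The 10 that remained lower in untreated shMCART1 were ANLN, CCNA2, CDK1, CENPF, ECT2, KIF11, KIF23, MKI67, NEK2 and PRC1. CCNA2 and KIF11 were called in all 4 knockdown and overexpression comparisons with the trend removed, a set that was not counted over all genes. CCNA2 then stood at -0.67 and -0.46 on the log2 scale in shMCART1 without and with MPP+, and at 0.39 and 0.28 in oeMCART1. KIF11 stood at -0.39 and -0.57 in shMCART1, and at 0.42 and 0.63 in oeMCART1. PLK1 kept its rise in untreated shMCART1 (0.20), and PLK1 (-0.31), CDC20 (-0.23), AURKB (-0.24) and UBE2C (-0.41) kept their falls in untreated oeMCART1. Of the checkpoint genes BUB1 (0.31) and BUB1B (0.45) were still higher in untreated oeMCART1, BUB3, called higher as deposited, was lower, and none of the 5 was called in untreated shMCART1.

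**Figure D4:**
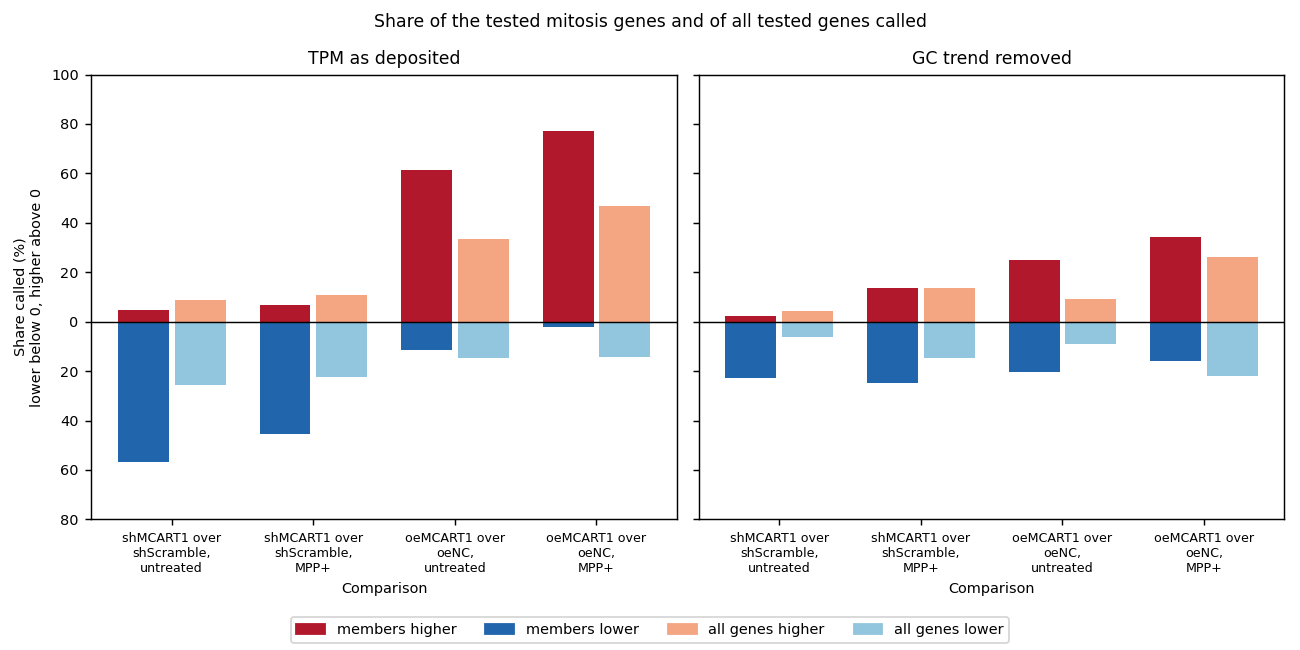
Bars give the percent of the 44 tested members and of all tested genes that were called higher (above 0) or lower (below 0) in 4 comparisons, for TPM as deposited on the left and after removal of the GC trend on the right. As deposited, 25 of 44 members were lower in untreated shMCART1 beside 25.6% of all genes, and with the trend removed 10 were lower beside 6.23%.

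Levels with MPP+ and without it come from tables that were made separately, so they are set side by side with no test. In oeMCART1 the MPP+ libraries lay below the untreated ones without overlap for 31 of the 45 members and above them for 4, in oeNC for 27 and 2, in shMCART1 for 13 and 8, and in shScramble for 30 and 4. These positions were not counted over all genes, so whether the members differ from other genes here is unknown. INCENP, the scaffold of the chromosomal passenger complex, stood at 16.1 ± 0.344, 15.1 ± 0.433, 13.1 ± 1 and 13.8 ± 1.67 TPM with MPP+ in shMCART1, shScramble, oeMCART1 and oeNC, against 41.7 ± 6.28, 46.4 ± 1.44, 39.7 ± 2.58 and 40.6 ± 4.22 TPM in the same populations untreated. MKI67 stood at 7.61 ± 0.96, 11.9 ± 1.06, 9.06 ± 0.587 and 6.01 ± 1.34 TPM with MPP+, against 16.3 ± 3.57, 24.5 ± 1.7, 26.7 ± 1.41 and 17.8 ± 2.22 TPM untreated. PLK1 lay at 120 to 128 TPM in the 4 group means with MPP+, against 166 to 262 TPM in those without it. CDK1 differed among the constructs, at 30.3 ± 5.13 TPM with MPP+ and 20.3 ± 5.99 TPM untreated in shMCART1, and at 41.9 ± 3.09 TPM with MPP+ and 63.9 ± 7.27 TPM untreated in oeMCART1. Whether such shifts came from MPP+ or from how the tables were made cannot be told apart.

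A shift that is common to all libraries of a table cancels in the difference between the effect of a construct with MPP+ and its effect without, which was tested over the 24 libraries. A trend on GC content that differs between groups need not cancel. The Spearman correlation of GC content with this difference was -0.494 over all genes and -0.547 over the members for the knockdown. For overexpression it was 0.213 and 0.494. The part of that trend in the differences below was not tested. For the knockdown, 3 of the 45 members had a more positive effect with MPP+ and none a more negative one. Of all genes 1.72% and 2.15% did. At an unadjusted p under 0.05, 11 members were more positive and 4 more negative, beside 3528 of all 15653 genes in either direction. The 3 called were CKS2 (0.68 ± 0.11, adjusted p = 0.00204), ASPM (0.99 ± 0.23, adjusted p = 0.0226) and KIF20A (0.40 ± 0.11, adjusted p = 0.0407). In fits without 1 library the call of KIF20A was lost in 11 of 12 and that of ASPM in 4 of 12, and with only the groups compared neither was called (adjusted p of 0.121 and 0.0569). CKS2 had measured 385, 449.6 and 354 TPM in untreated shMCART1, against 496, 557 and 491 TPM in untreated shScramble, the opposite order to that with MPP+. For overexpression, 6 of the 45 had a more positive effect with MPP+ and 1 a more negative one, beside 12.6% and 5.24% of all genes. The counts were 2 and 4 after median-of-ratios scaling, beside 1100 and 1291 of all 15653 genes, and 4 and 2 after quantile normalization, beside 1399 and 1139. The 6 were PLK1 (0.53 ± 0.08), CDC20 (0.52 ± 0.10), FOXM1 (0.51 ± 0.10), CDCA8 (0.38 ± 0.09), CDCA3 (0.33 ± 0.09) and UBE2C (0.32 ± 0.08), with adjusted p between 0.000183 and 0.0118, and the 1 was PRC1 (-0.38 ± 0.11, adjusted p = 0.0215), whose call was lost in 5 of 12 fits without 1 library. CDC20, CDCA8, CDCA3 and UBE2C were not called after median-of-ratios scaling. As deposited, FOXM1 fell in untreated oeMCART1, a call lost with the GC trend removed (-0.15, adjusted p = 0.111) and in several fits without 1 library. FOXM1 rose in oeMCART1 with MPP+ as deposited, but stood at -0.07 after median-of-ratios scaling. It measured 64.7, 67.7 and 70.5 TPM in oeMCART1 against 77.8, 86.0 and 81.4 TPM in oeNC untreated, and 82.0, 79.2 and 81.8 TPM against 72.1, 66.4 and 66.6 TPM with MPP+.

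**Figure D5:**
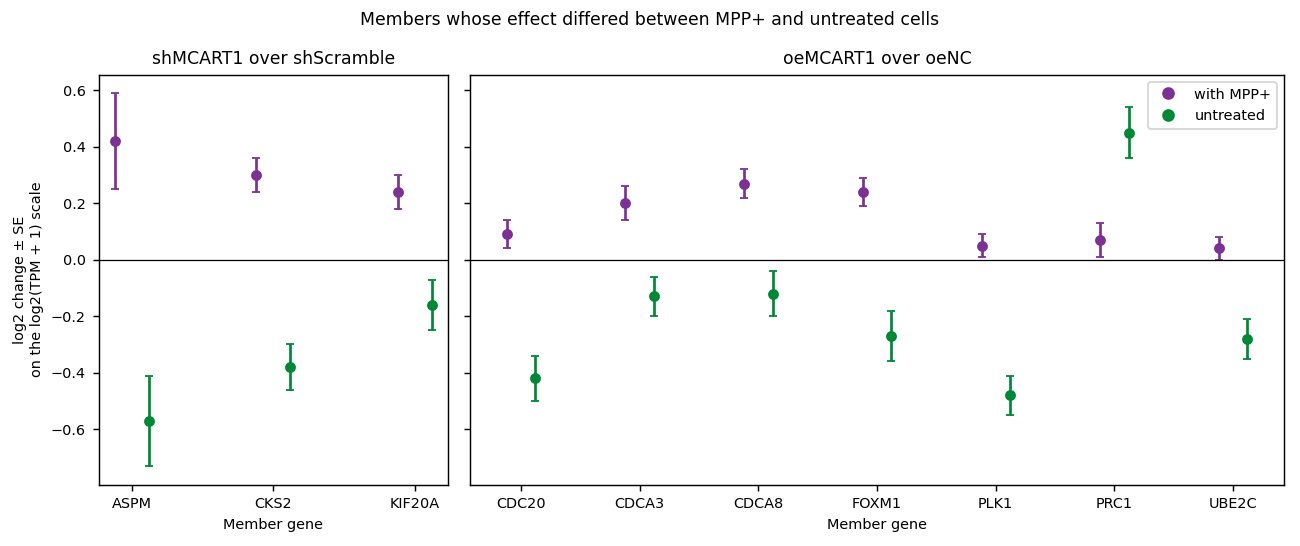
Points are log2 changes ± SE on the log2(TPM + 1) scale, with MPP+ (purple) and untreated (green), of the members whose effect was called different between them as deposited, for shMCART1 over shScramble (left) and oeMCART1 over oeNC (right). CKS2, ASPM and KIF20A lay above 0 with MPP+ and below it untreated in the knockdown, where the calls of KIF20A and ASPM were lost in 11 and 4 of 12 fits without 1 library, and among the 7 overexpression members PRC1 was the one with a lower value with MPP+ than untreated.

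The partners of these genes in mitosis were described as lists of other genes, whose counts stand beside 25.6% of all genes lower and 8.64% higher in untreated shMCART1 and 33.5% higher and 14.7% lower in untreated oeMCART1 (with the GC trend removed 6.23% and 4.37%, and 9.27% and 8.95%). Of 27 other kinetochore subunits 17 fell and none rose in untreated shMCART1, and 21 rose and 3 fell in untreated oeMCART1. With MPP+ 14 fell and 2 rose in shMCART1 (all genes 22.2% and 10.8%), and 23 rose and none fell in oeMCART1 (all genes 46.7% and 14.2%). With the GC trend removed 4 of the 27 were lower and 1 higher in untreated shMCART1 and 1 was higher and 3 lower in untreated oeMCART1, and with MPP+ 10 were lower and 3 higher in shMCART1 and 8 higher and 4 lower in oeMCART1. SKA3, of the complex that couples kinetochores to shrinking microtubules, changed by -0.68 in untreated shMCART1, by 0.67 in untreated oeMCART1 and by -0.83 in shMCART1 with MPP+ on the log2 scale. With the GC trend removed SKA3 was not called in untreated cells (-0.16, adjusted p = 0.213, and 0.04, adjusted p = 0.786) and stood at -0.57 in shMCART1 with MPP+. Of 20 condensin and cohesin genes 12 fell and 1 rose in untreated shMCART1, and 13 rose and 1 fell in untreated oeMCART1; with the GC trend removed 4 were lower and none higher in shMCART1, and 6 higher and 1 lower in oeMCART1. NCAPG, a condensin subunit, stood at 5.83 TPM in untreated shMCART1 and 13.3 TPM in shScramble, and at 19.4 TPM in oeMCART1 and 8.06 TPM in oeNC; its log2 changes with the GC trend removed were -0.48 and 0.50. Of 17 APC/C genes 8 fell and 1 rose in untreated shMCART1, and 10 rose and 4 fell in untreated oeMCART1; CDC27, a core subunit, changed by -1.02 and 1.22 on the log2 scale, and by -0.39 and 0.51 with the GC trend removed. With the trend removed 2 of the 17 were lower and 1 higher in shMCART1, and 3 higher and 4 lower in oeMCART1. Of 14 other kinases and phosphatases of mitotic entry 7 fell and none rose in untreated shMCART1, and 8 rose and 2 fell in untreated oeMCART1; with the GC trend removed 3 were lower and none higher, and 2 higher and 1 lower. Of 19 other spindle and motor genes 7 fell and 1 rose in untreated shMCART1, and 10 rose and 4 fell in untreated oeMCART1, against 3 lower and none higher, and 4 higher and none lower, with the trend removed.

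For genes outside mitosis the same shares of all genes apply. Of 30 DNA replication genes 11 fell and 4 rose in untreated shMCART1, and 11 rose and 2 fell in untreated oeMCART1; with the GC trend removed 3 were lower and 1 higher, and 7 higher and 3 lower. MCM5, MCM2 and MCM7, subunits of the replicative helicase, were among those that rose in untreated shMCART1, by 0.45, 0.28 and 0.24 on the log2 scale; with the GC trend removed MCM5 was still called (0.31), and MCM2 (adjusted p = 0.0974) and MCM7 (adjusted p = 0.15) were not. With MPP+ 13 of the 30 fell and 5 rose in shMCART1 (all genes 22.2% and 10.8%), and 18 rose and 5 fell in oeMCART1 (46.7% and 14.2%). With the GC trend removed 10 were lower and 6 higher in shMCART1 (14.9% and 13.8%), and 8 higher and 11 lower in oeMCART1 (26.2% and 21.9%). RFC4 (-0.76), POLA1 (-0.72) and PCNA (-0.42) were among those that fell in shMCART1. CDT1, which loads that helicase, went against most of the called genes as deposited. It stood at 128 TPM in shMCART1 and 77.2 TPM in shScramble with MPP+, and at 57.9 TPM in oeMCART1 and 132 TPM in oeNC with MPP+ (0.59 and -0.97 on the log2 scale with the GC trend removed, both called). Of 19 regulators in the DREAM, MuvB and MYB list 9 fell and 2 rose in untreated shMCART1; RB1, the retinoblastoma repressor, fell by 0.94 and MYBL2, the activator B-MYB, rose by 0.43 on the log2 scale. In untreated oeMCART1 13 of the 19 rose and 5 fell, with RB1 at 1.01 and MYBL2 at -0.43. With the GC trend removed 2 of the 19 were lower and 1 higher in shMCART1 and 2 higher and 1 lower in oeMCART1, with RB1 at -0.32 and 0.30 and MYBL2 at 0.20 and -0.16 in these comparisons. Of 14 tested inhibitors of the cell cycle 2 rose and 2 fell in untreated shMCART1, and with MPP+ 4 rose and 5 fell in shMCART1, where CDKN1A, the inhibitor p21, fell to 17.2 TPM, against 29.4 TPM in shScramble (-0.74, adjusted p = 0.000318). In oeMCART1 with MPP+ 8 of the 14 rose and 2 fell, CDKN1A among them at 56.6 TPM, against 26.2 TPM in oeNC (1.09, adjusted p = 3.3e-06). With the GC trend removed CDKN1A stood at -0.79 and 1.14 in these 2 comparisons, and of the 14 5 were higher and 4 lower in shMCART1 and 4 higher and 4 lower in oeMCART1 with MPP+, and 2 higher and 1 lower in untreated shMCART1. Of 9 G1 cyclins and kinases 3 fell and 1 rose in untreated shMCART1, CDK4 rising by 0.28 and CCNE2 falling by 0.97 on the log2 scale; with the GC trend removed none of the 9 was called, with CDK4 at an adjusted p of 0.0637 and CCNE2 at 0.125.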

How the data were processed

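TPM values of all genes in 24 libraries were taken as the authors deposited them, in 1 table of the 12 untreated libraries and 1 of the 12 libraries given MPP+. Per the labels' protocols, RNA was extracted with TRIzol and libraries were primed with oligo-dT in a strand-specific kit. GRCh38 and the mouse builds GRCm38 and mm10 are named in the submitters' processing notes, with no role given. The sources used here give no aligner, counter, annotation or strand setting, and the files list 63241 and 36741 genes with an ID, so values were tested within a table only; 25 and 42 entries without an ID were left out. Every sample column was used. TPM keeps no depth, so no counting error could be given, and fold changes on the log2(TPM + 1) scale understate those of low genes.

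Groups came from the sample labels. Genes that reached 1 TPM in 3 or more libraries were fitted per table with limma 3.58.1 (R 4.3.3, trended variance, all 4 groups of a table) on log2(TPM + 1), with Benjamini-Hochberg adjustment over all genes. Adjusted p-values in the text are from these fits. Differences between effects with and without MPP+ were fitted over all 24 libraries on 31524 shared gene IDs. Alternatives were a pseudocount of 0.1, a filter of 5 TPM or none, median-of-ratios scaling, quantile normalization, removal of each library's trend on GC content (natural spline, 5 df, longest GENCODE 29 transcript), only the groups compared, a replicate block, and leaving out each library. Tables were handled in Python 3.11.15 with pandas 2.3.3.

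The 45 members are a given list; the members, roles and other lists were chosen with earlier results of these data known. All members with their counts were reported, and the 3 genes with the smallest p in each direction were available as examples of each other list. Promoter sequences are RefSeq's on GRCh38.p14, of which 37 of 45 members were matched; AURKA, BUB3, TTK, TPX2, BIRC5, UBE2C, FOXM1 and RACGAP1 were not. Overlapping and antisense genes cannot be told apart where strand was not used. Some marker genes are not reported here.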

Additional observations from a re-analysis of the deposited data

Results flagged for a closer look

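The effect of the knockdown differed between cells with MPP+ and without it for 3 members, by the limma interaction over all 24 libraries with Benjamini-Hochberg adjustment. The difference of log2 changes was 0.99 ± 0.23 for ASPM (SE, adjusted p = 0.0226), 0.68 ± 0.11 for CKS2 (adjusted p = 0.00204) and 0.40 ± 0.11 for KIF20A (adjusted p = 0.0407). The effect of overexpression differed for 7. The differences were 0.53 ± 0.08 for PLK1 (adjusted p = 0.000183), 0.52 ± 0.10 for CDC20 (adjusted p = 0.000996), 0.51 ± 0.10 for FOXM1 (adjusted p = 0.00103), 0.38 ± 0.09 for CDCA8 (adjusted p = 0.00688), 0.33 ± 0.09 for CDCA3 (adjusted p = 0.0118), 0.32 ± 0.08 for UBE2C (adjusted p = 0.0068) and -0.38 ± 0.11 for PRC1 (adjusted p = 0.0215). A positive difference means a higher log2 change with MPP+ than untreated.

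The differences of CKS2, FOXM1 and PLK1 were called under every alternative run. After median-of-ratios scaling those of CDC20 (0.41, adjusted p = 0.0642), CDCA8 (0.28, adjusted p = 0.0859), CDCA3 (0.23, adjusted p = 0.169) and UBE2C (0.21, adjusted p = 0.304) were not called, after quantile normalization those of CDCA8 (0.23, adjusted p = 0.0726) and CDCA3 (0.20, adjusted p = 0.104) were not called, and with the GC trend removed that of UBE2C was 0.24 (adjusted p = 0.115). In fits without 1 library, the difference of KIF20A was not called in 11 of 12 (adjusted p of 0.0561 to 0.104), that of ASPM in 4 of 12 (without shMCART1 replicate 3, shScramble replicate 2, shMCART1 replicate 1 with MPP+ or shScramble replicate 3 with MPP+, 0.0521 to 0.0738), and that of PRC1 in 5 of 12 (0.0551 to 0.0672).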

How the results depend on the processing

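Of the counts of members called under the alternatives, 180 stayed within 1.5 times the values in the report and 84 did not, and of the log2 changes of single members 4132 kept direction and call, 325 lost the call, 107 gained it and 59 changed sign. The cause of these changes was not tested. In the following, untreated and MPP+ name the table, and counts are members called higher and lower. Counts over all genes changed with the setting too, so these counts do not set the members apart. With the GC trend removed they were 1 and 10 for shMCART1 over shScramble untreated, 11 and 9 for oeMCART1 over oeNC untreated, 6 and 11 for shMCART1 over shScramble with MPP+, 15 and 7 for oeMCART1 over oeNC with MPP+, 2 and 3 for oeNC over shScramble untreated, 6 and 11 for oeNC over shScramble with MPP+, 4 and 1 for the difference of knockdown effects and 6 and 2 for that of overexpression effects. After median-of-ratios scaling they were 5 and 23, 26 and 9, 6 and 13, and 19 and 9 for the first 4, 9 and 18 for oeNC over shScramble with MPP+, and 2 and 4 for the difference of overexpression effects. After quantile normalization they were 26 and 8 for oeMCART1 over oeNC untreated, 5 and 16 for shMCART1 over shScramble with MPP+, 19 and 5 for oeMCART1 over oeNC with MPP+, 2 and 23 for oeNC over shScramble with MPP+, and 4 and 2 for the difference of overexpression effects. With no filter limma called 1 and 14 for shMCART1 over shScramble untreated and 1 lower for oeNC over shScramble untreated. With only the groups compared it called 0 and 0 for shMCART1 over shScramble untreated, where 5799 genes had an unadjusted p under 0.05, 0 lower for oeNC over shScramble untreated, 5 higher for shMCART1 over shScramble with MPP+, and 1 higher for the difference of knockdown effects.

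Leaving out 1 library at a time gave 0 to 2 higher and 0 to 31 lower for shMCART1 over shScramble untreated, 20 to 30 and 4 to 5 for oeMCART1 over oeNC untreated, 2 to 3 and 11 to 20 for shMCART1 over shScramble with MPP+, 33 to 34 and 0 to 2 for oeMCART1 over oeNC with MPP+, 0 to 17 lower for oeNC over shScramble untreated, 30 to 35 lower for it with MPP+, 1 to 6 and 0 to 3 for the difference of knockdown effects, and 6 and 0 to 4 for that of overexpression effects.

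Pairing by replicate number was weak and uneven: same-numbered libraries deviated together with correlations of -0.0729 to 0.211. Between oeMCART1 and oeNC each library correlated best with its own number, at 0.0551, 0.111 and 0.0873 untreated and 0.0648, 0.0315 and 0.113 with MPP+. In the other comparisons not every library did. Over all genes a replicate block moved the calls from 189 to 1936 for oeNC over shScramble untreated, and from 4924 to 4604 for shMCART1 over shScramble with MPP+. With a replicate block 12 members were lower for oeNC over shScramble untreated, 3 lower for the difference of knockdown effects and 2 lower for that of overexpression effects. With the replicate block and the GC trend removed the counts were 12 lower for shMCART1 over shScramble untreated, 14 and 10 for oeMCART1 over oeNC untreated, 6 and 12 for shMCART1 over shScramble with MPP+, 17 and 7 for oeMCART1 over oeNC with MPP+, 3 and 4 for oeNC over shScramble untreated, 6 and 14 for it with MPP+, 1 lower for the difference of knockdown effects and 3 lower for that of overexpression effects.

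With the GC trend removed, with or without the replicate block, the log2 change turned in untreated shMCART1 for ASPM (0.05), CKS2 (0.14), CCNB1 (0.06) and BUB3 (0.07). In untreated oeMCART1 it turned for CKS2 (-0.44), CCNB1 (-0.29), SPC25 (-0.08), BUB3 (-0.16), RACGAP1 (-0.12) and CDK1 (-0.06), and in shMCART1 with MPP+ for CCNB2 (0.01). In oeMCART1 with MPP+ it turned for ASPM (-0.60), TTK (-0.05), CENPA (-0.01), NUSAP1 (-0.01), BUB3 (-0.31), RACGAP1 (-0.14), MAD2L1 (-0.15), CDK1 (-0.10), UBE2C (-0.16) and PRC1 (-0.20). In oeMCART1 with MPP+ median-of-ratios scaling turned BIRC5 (-0.28), FOXM1 (-0.07), CDCA3 (-0.11), KIF20A (-0.03), CENPA (-0.03), CDC20 (-0.22), CDCA8 (-0.04), BUB3 (-0.02), PLK1 (-0.26), UBE2C (-0.27) and PRC1 (-0.24), and quantile normalization turned BIRC5 (-0.14), CDCA3 (-0.02), KIF20A (-0.02), CENPA (-0.02), CDCA8 (-0.01) and PLK1 (-0.13). TPM keeps no depth, so what depth limits could not be given.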
